A study of Brassica rapa subsp. rapa with 9 samples.

Results

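The genes described here build, cross-link, loosen or trim the plant cell wall, or encode enzymes that split sugar bonds, in the swollen hypocotyl, the storage organ, of the turnip cultivar Tsuda (Brassica rapa subsp. rapa) after UV-B, UV-A or blue light. They were all probes of weight 1 whose deposited name mentions xyloglucan, expansin, extensin, pectin, cellulose, cell wall or the hydrolysis of O-glycosyl compounds, with the probes named EXGT-A1 and CWLP added and those named ATHCHIB and AT2G43590 left out. This gave 122 of the 2507 probes tested, on 253 spots, under 38 of the 1132 names. Names are those of the best-matching Arabidopsis genes in the deposited annotation. Of the 38 names, 20 had 1 probe and 18 had more, up to 18 probes for CWLP. Where a name had several probes, the one with the highest signal, averaged over the 9 arrays, stands for it and is called its brightest probe. Whether probes of 1 name stand for the same turnip gene was not tested, and a cDNA spot can also bind RNA of close relatives.

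The study set organs exposed to light against organs kept in darkness. Each of 9 spotted cDNA arrays carried polyA RNA of 1 exposed sample, labelled with Cy3, and of 1 dark sample, labelled with Cy5. UV-B, UV-A and blue light each lasted 24 hours and had 3 arrays, which the design text calls biological replicates of more than 5 plants each. The RNA came from a peeled surface layer 1 to 2 mm thick, so skin and the tissue under it were measured together. In such a mixture, fewer cells of a type and less RNA per cell cannot be told apart. Blue light stands in the description of each of the 9 samples, so the groups follow the sample titles, which name 3 lights.

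The plant wall is a network of cellulose fibres tied together by xyloglucan, embedded in pectin and strengthened by structural proteins such as extensins. Xyloglucan endotransglucosylase/hydrolases (XTHs) cut and rejoin the xyloglucan tethers, expansins loosen the network without cutting it, and pectin methylesterases change how stiff the pectin gel is, under the control of inhibitor proteins. Glycosyl hydrolases form a wide class: some trim wall polymers, while others release stored defence compounds or hormones from their sugar conjugates.

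All values below are normalised log2(light/dark) ratios, so that 1 unit is a doubling over the dark sample hybridised to that array, and -1 is a halving. Errors are standard errors of the fit, and adjusted p-values are Benjamini-Hochberg values of limma's moderated test over all 2507 probes. A probe passed at an adjusted p under 0.05. No dyes were swapped, so a probe's dye bias and the effect of light against dark cannot be told apart. That bias cancels in a difference between lights. The arrays differed in quality: the median foreground over background in the light channel was lowest, 2.47, on UV-B replicate 1 and highest, 47.2, on UV-A replicate 2. On the 3 arrays numbered 3, 79.3% to 99.3% of the 135 spots without a clone lay above background in the light channel, against at most 7.41% on the other 6 arrays. Where a probe is said below to lie above background, those 3 arrays thus say little about its signal. Results are therefore also given without single arrays, and without the 3 arrays numbered 3 together, wherever that ends a call or moves its fold by over 1.5 times. Other settings that do so are given beside the call.

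UV-B lowered more wall probes than it raised. Against dark, 21 of the 122 probes fell and 7 rose in UV-B. Their shares of 17.2% and 5.74% stood beside 13.9% lower and 10.8% higher among all probes, and the 23% passing in either direction beside 24.7%. The median log2 ratio of the 122 was -0.35 in UV-B, against 0.01 for all probes. Values were negative for 84 of the 122 (68.9%), against 49.4% of all probes. All 3 UV-B arrays lay below 0 for 49 of the 122 (40.2%, against 27.3% of all probes) and above 0 for 19 (15.6%, against 28.2%). This tilt was not confined to UV-B. In UV-A the counts were 46 and 19 (37.7% and 15.6%, against 26% and 24.1%). In blue light they were 39 and 21 (32% and 17.2%, against 21.1% and 19.7%). By name, 9 of the 38 brightest probes fell and 2 rose (23.7% and 5.26%, against 11.4% and 12.8% of all names), which is 28.9% in either direction beside 24.2%. With the replicate number as a block 19 names passed (50%, against 32.1%). The 11 names became 4 without UV-B replicate 1 (10.5%, against 12.3% of all names), 3 without UV-B replicate 3 (7.89%, against 11%), 4 without the arrays numbered 3 (10.5%, against 16.7%), 7 without UV-A replicate 1, 7 without UV-A replicate 3 and 7 with UV-B fitted by itself (18.4%, against 18.1%). Without UV-B replicate 1, UV-B replicate 3 or the arrays numbered 3, the share of these names was thus below that of all names. It was also below without UV-A replicate 1 (18.4%, against 19.9%), UV-A replicate 3 (18.4%, against 21.5%) or blue replicate 2 (21.1%, against 22.3%). The same held in the authors' processed values (23.7%, against 30.9%) and with all probes of a name averaged (23.7%, against 25.7%). Without UV-B replicate 1 the 28 passing probes became 14 (11.5%, against 13.1% of all probes). Without UV-B replicate 3 they became 11 (9.02%, against 10.8%), and without the 3 arrays numbered 3 they became 14 (11.5%, against 16.8%).

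UV-A and blue light each changed few of the genes. In UV-A, 4 probes fell and 3 rose (3.28% and 2.46%, against 2.07% and 1.12% of all probes, and 5.74% in either direction, against 3.19%). No name passed through its brightest probe in limma's test (0%, against 1.77% of all names). At an unadjusted p under 0.05 were 10 of the 38, and 223 of all 1132 names. The median of -0.21, against -0.00 for all probes, and the 83 negative probes of 122 (68%, against 50.1%) lay on the same side of 0 as in UV-B. In blue light, 4 probes rose and 3 fell (3.28% and 2.46%, against 1.12% and 2.35% of all probes, and 5.74% in either direction, against 3.47%). By name 1 passed, a rise (2.63%, against 3.27% of all names), and none did without UV-B replicate 1, any 1 UV-A or blue-light array or the arrays numbered 3. The median was -0.03, and 61 of the 122 probes were negative. Without UV-A replicates 1, 2 and 3 in turn, the UV-A count became 2, 0 and 1 (1.64%, 0% and 0.82%). In these fits 0.917%, 0% and 0.0798% of all probes passed. The UV-A count was 3 without UV-B replicate 1 (2.46%, against 1.95%) and 3 without the arrays numbered 3 (2.46%, against 1.28%). The blue-light count became 2, 1 and 0 without blue replicates 1, 2 and 3 (1.64%, 0.82% and 0%, against 1.99%, 0.758% and 0% of all probes). It was 3 without any 1 of the UV-A arrays (2.46%, against 0.678%, 1.04% and 0.917% without replicates 1, 2 and 3). Without UV-B replicate 1 it was 2 (1.64%, against 0.558%), and without the arrays numbered 3 it was 0 (0%, as for all probes). With the replicate number as a block, 20 probes passed in UV-A and 24 in blue light (16.4% and 19.7%, against 11.1% and 16.1% of all probes in the same fit), and by name 5 passed in UV-A and 7 in blue light (13.2% and 18.4%, against 9.72% and 15.1% of all names).

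Between lights, UV-B stood below blue light for 10 of the 122 probes and above it for 3 (8.2% and 2.46%, against 10.3% and 8.06% of all probes, and 10.7% in either direction, against 18.3%). By name these were 6 and 2 of 38 (15.8% and 5.26%, against 9.63% and 8.3%, and 21.1% in either direction, against 17.9%). The 8 names became 2 without UV-B replicate 1 (5.26%, against 8.75% of all names), 2 without UV-B replicate 3 (against 8.92%), 2 without blue replicate 3 (against 10.6%), 3 without the arrays numbered 3 (7.89%, against 6.63%), 4 or 5 without UV-A replicate 1, UV-B replicate 2 or blue replicate 1 or 2, and 4 with these lights fitted by themselves (10.5%, against 10.4%). UV-B stood below UV-A for 3 probes and above it for none (2.46% and 0%, against 4.59% and 2.03%, and 6.62% of all probes in either direction). By name 2 were lower and none higher (5.26%, against 6.01% of all names in either direction). UV-A and blue light did not differ for any of the 122 in limma's test (0%, as for all probes). At an unadjusted p under 0.05 were 5 of the 122, and 80 of all 2507 probes. Of the 28 probes that passed against dark in UV-B, 10 also passed against blue light in the same direction. These tests share the UV-B arrays. With the replicate block, 25 probes passed between UV-B and blue light and 9 between UV-B and UV-A (20.5% and 7.38%, against 28.8% and 15.1% of all probes), and 5 names passed between UV-B and UV-A (13.2%, against 14% of all names). The 13 probes became 7 without UV-B replicate 1 (5.74%, against 9.37% of all probes) and 6 without UV-B replicate 3 (4.92%, against 8.7%). Without the arrays numbered 3 they became 8 (6.56%, against 7.42%). The 3 probes became 6 without UV-B replicate 2 (4.92%, against 8.26% of all probes) and 5 without UV-A replicate 2 (4.1%, against 5.78%). Without blue replicate 3 they became 6 (4.92%, against 11.1%).

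**Figure D1:**
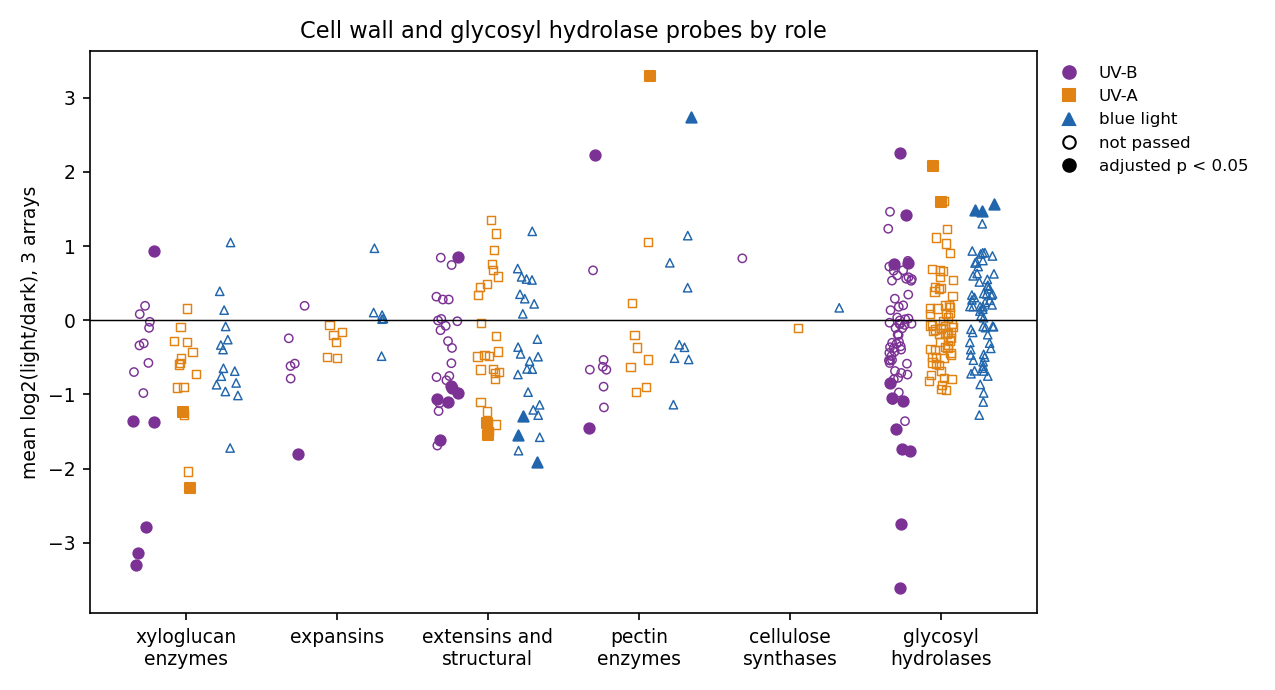
Mean log2(light/dark) over 3 arrays (vertical axis) of each of the 122 probes, grouped by role (horizontal axis) and by light (UV-B circles, UV-A squares, blue light triangles). Filled symbols passed at an adjusted p under 0.05. The lowest values, down to -3.61, are UV-B circles among xyloglucan enzymes and glycosyl hydrolases, and the highest, 3.29, is a UV-A square among pectin enzymes.

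The genes annotated as xyloglucan enzymes, XTH9 with 12 probes and EXGT-A1 with 3, held some of the deepest falls. Of these 15 probes, 5 fell and 1 rose in UV-B (33.3% and 6.67%, against 13.9% and 10.8% of all probes) and 2 fell in UV-A (13.3%, against 2.07%). These shares do not cover the whole XTH family. Other XTH genes, among them ATXTH17, ATXTH18, TCH4 and MERI5B, are counted with the glycosyl hydrolases. None of the 15 XTH9 and EXGT-A1 probes passed in blue light in limma's test (0%, against 3.47%). There 7 of them, and 632 of all 2507 probes, were at an unadjusted p under 0.05. XTH9 encodes an enzyme of the XTH family. Its probes did not behave alike: 4 fell in UV-B, 1 rose, and 7, between -0.98 and the 0.19 of its brightest probe 584, did not pass. Averaged over all its 12 probes, XTH9 fell by 0.92 ± 0.207 on the log2 scale in UV-B (adjusted p = 0.00814, limma's test over names). This average was -0.78 in UV-A (adjusted p = 0.0779) and -0.516 in blue light (adjusted p = 0.152). Its UV-B value did not pass against UV-A (difference -0.141, adjusted p = 0.803) or blue light (difference -0.405, adjusted p = 0.329). A dye bias and a fall common to all lights cannot be told apart here.

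XTH9 probe 696 had log2 ratios of -3.84, -2.79 and -3.26 on UV-B replicates 1 to 3, -1.67, -2.09 and -3.03 on the UV-A arrays and -0.92, -0.76 and -3.49 on the blue-light arrays. All 9 values were below 0, and blue replicate 3 lay among the UV-B values while the other 2 blue-light arrays lay near -1. The probe was 9.83-fold lower than dark in UV-B (log2 -3.30 ± 0.477, adjusted p = 0.000648) and 4.8-fold lower in UV-A (log2 -2.26 ± 0.477, adjusted p = 0.0271). The UV-A call was lost without any 1 UV-A array (adjusted p = 0.0763, 0.159 and 0.176 without replicates 1, 2 and 3). Plain background subtraction gave -4.06 in UV-B.

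XTH9 probe 1616 had -3.45, -2.30 and -3.67 on the UV-B arrays, -1.57, -2.03 and -0.23 on the UV-A arrays and -1.11, -0.26 and 0.58 on the blue-light arrays. The UV-B arrays lay below all others. The probe was 8.81-fold lower than dark in UV-B (log2 -3.14 ± 0.414, adjusted p = 0.00035) and 7.35-fold lower than in blue light (difference -2.88 ± 0.586, adjusted p = 0.00784). Without the arrays numbered 3, that difference was -2.19. The size moved with the processing while both calls held. Plain background subtraction gave -4.25 against dark and -3.96 against blue light, reading spots of weight 0 as well gave -1.68 and -1.58, and the authors' processed values gave -2.23 against blue light. Its light channel lay above background on 2 of the 3 UV-B arrays.

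Both other XTH9 probes that fell in UV-B changed less. Probe 877 had -1.66, -1.53 and -0.93 on the UV-B arrays, -1.03, -1.15 and -0.53 on the UV-A arrays and -0.66, -0.79 and -0.50 on the blue-light arrays, and fell by 1.37 ± 0.259 in UV-B (adjusted p = 0.0028). Probe 452 had -1.19, -1.39 and -1.49 on the UV-B arrays, -0.35, -0.41 and -0.54 on the UV-A arrays and -0.28, 0.06 and 0.62 on the blue-light arrays. It fell by 1.36 ± 0.254 against dark (adjusted p = 0.00273), with its light channel above background on 2 of 3 UV-B arrays. It was also lower than in blue light (difference -1.49 ± 0.359, adjusted p = 0.0172), a call lost without UV-B replicate 3 (adjusted p = 0.0537) and without the arrays numbered 3 (adjusted p = 0.0975). In the authors' processed values that difference was -0.68 and did not pass (adjusted p = 0.0818). Plain background subtraction gave -1.95 against dark.

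XTH9 probe 3 ran the other way. It had 0.87, 1.20 and 0.71 on the UV-B arrays, -0.27, 0.35 and -0.37 on the UV-A arrays and -0.51, -0.75 and -1.35 on the blue-light arrays. The 3 lights did not overlap. It stood 3.48-fold above blue light in UV-B (difference 1.80 ± 0.384, adjusted p = 0.00957), a call kept in each of the 20 alternative fits. Its rise of 0.93 ± 0.272 against dark (adjusted p = 0.0277) was lost without UV-B replicates 1, 2 or 3 (adjusted p = 0.102, 0.12 and 0.0755). Probe 2497 fell by 1.24 ± 0.298 in UV-A (adjusted p = 0.0476), where its light channel was above background on 2 of 3 arrays. That call ended without any 1 UV-A array, UV-B replicate 1 or 2, or blue replicate 1 or 2 (adjusted p between 0.059 and 0.297), and with plain background subtraction (log2 -1.85), median centring, print-tip loess, all spots or the authors' values (adjusted p between 0.0534 and 0.102).

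EXGT-A1 is an endo-xyloglucan transferase of the same family. Its brightest probe 541 had -1.30, -3.32 and -3.74 on the UV-B arrays, -1.20, -3.48 and -1.44 on the UV-A arrays and -0.73, -2.08 and -0.24 on the blue-light arrays. All 9 values were negative, and the 3 lights overlapped. The probe was 6.91-fold lower than dark in UV-B (log2 -2.79 ± 0.537, adjusted p = 0.00322), had -2.04 in UV-A (adjusted p = 0.0631) and -1.01 in blue light, and did not pass between lights. Its light channel was above background on 1 of the 3 UV-B arrays, and on UV-B replicate 3 most spots without a clone were too. The size of the fall moved with the background correction. It was -4.82 with plain subtraction and -1.58 in the authors' processed values, and -3.53 without UV-B replicate 1. Its other 2 probes had -0.02 and 0.08 in UV-B and did not pass in any comparison.

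Further XTH genes carry only the general hydrolase annotation. Hydrolases named only by a locus number were not sorted by family, so those described further below may include other XTH genes. ATXTH17 had 9 probes, of which 2 rose and 1 fell in UV-B (22.2% and 11.1%, against 10.8% and 13.9% of all probes). None of its 9 probes passed in UV-A or blue light in limma's test (0 and 1 at an unadjusted p under 0.05). Its brightest probe 1648 had 0.74, 1.01 and 0.56 on the UV-B arrays, -0.05, 0.13 and -0.39 on the UV-A arrays and -0.18, -0.59 and -0.61 on the blue-light arrays, so UV-B lay above every other array. It rose by 0.77 ± 0.247 against dark (adjusted p = 0.0401) and stood 1.23 ± 0.35 above blue light (adjusted p = 0.0322). Against dark the call was lost without any 1 UV-B or UV-A array, blue replicate 2 or the arrays numbered 3 (adjusted p between 0.0524 and 0.156). Against blue light it was lost without any 1 UV-B array, UV-A replicate 1, blue replicate 2 or 3, or the arrays numbered 3 (adjusted p between 0.0578 and 0.0897).

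ATXTH17 probe 2644 rose by 0.76 ± 0.243 (adjusted p = 0.0395) and probe 1380 fell by 1.05 ± 0.328 (adjusted p = 0.0365) in UV-B. The first call was lost without UV-B replicate 1 or 3, any 1 UV-A array, blue replicate 2 or the arrays numbered 3 (adjusted p between 0.0556 and 0.248), and with median centring (adjusted p = 0.058) or print-tip loess (log2 0.35, adjusted p = 0.282). The second was lost without UV-B replicate 1 or 3, UV-A replicate 1 or 3, or the arrays numbered 3 (adjusted p between 0.0526 and 0.269). All 9 ATXTH17 probes were negative in UV-A, between -0.60 and -0.09, and none passed there.

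TCH4, an XTH known in Arabidopsis for its induction by touch, had 3 probes with negative means in all 3 lights. Its brightest probe 2766 had -0.71, -0.93 and -1.64 on the UV-B arrays, -0.59, -0.68 and -0.95 on the UV-A arrays and -0.31, -0.90 and 0.28 on the blue-light arrays, which overlap. It fell by 1.09 ± 0.294 in UV-B (adjusted p = 0.0189), a call lost without UV-B replicate 3 (adjusted p = 0.152) and without the arrays numbered 3 (adjusted p = 0.0792). ATXTH18, with 3 probes between -0.73 and -0.06 in UV-B, and MERI5B, with 1 probe at -0.97, did not pass in any comparison.

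**Figure D2:**
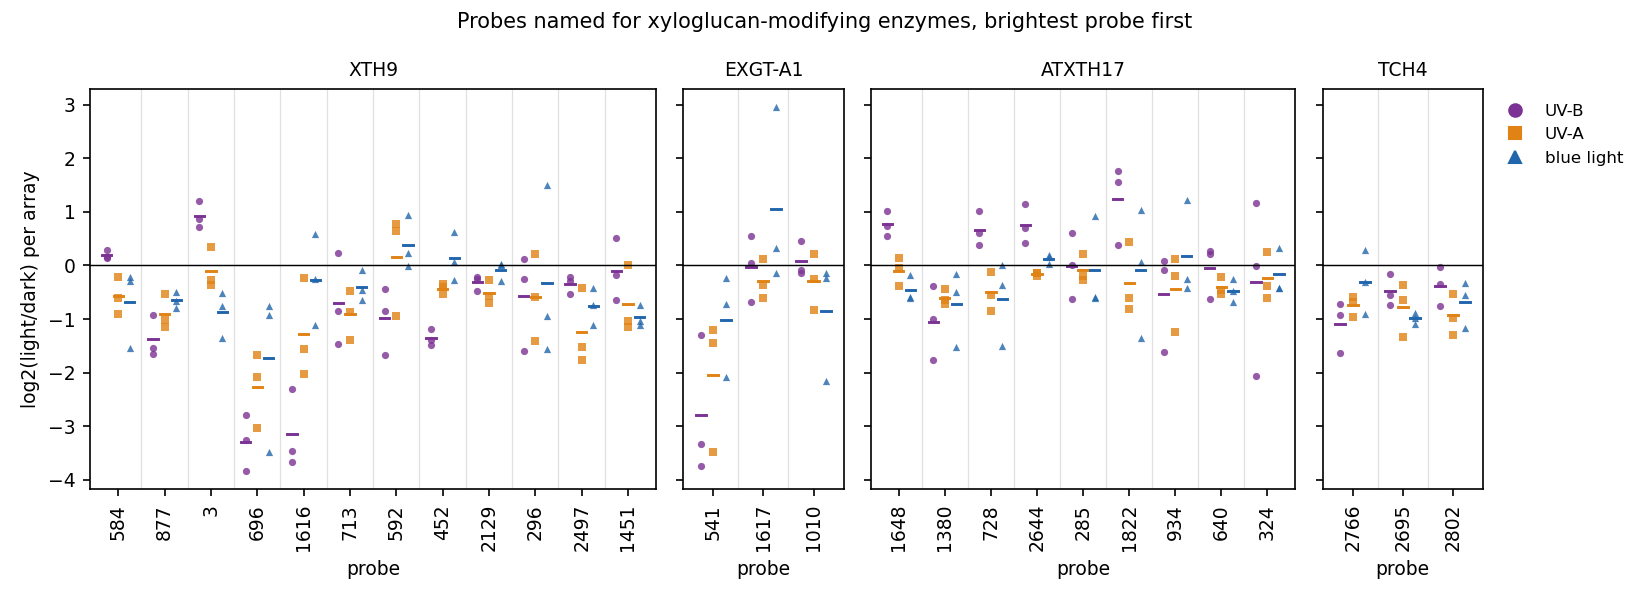
Log2(light/dark) on each array (points, 3 per light) and its mean (bars) for every probe named XTH9, EXGT-A1, ATXTH17 or TCH4, with the brightest probe of each name on the left. The UV-B circles of XTH9 probes 696 and 1616 lie between -3.84 and -2.30, while those of XTH9 probe 3 lie between 0.71 and 1.20.

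The expansins were represented by ATEXLA2, an expansin-like gene, with 6 probes. The brightest, probe 476, had 0.74, 0.88 and -1.03 on the UV-B arrays, 0.31, 0.62 and -1.13 on the UV-A arrays and 0.25, 0.04 and -0.23 on the blue-light arrays, and did not pass (0.19 in UV-B). In each light its replicate 3 lay below 0 and the other 2 arrays above. Probe 92 was the only member of this class that passed: it had -1.38, -1.84 and -2.21 on the UV-B arrays, 0.22, -2.15 and 0.40 on the UV-A arrays and 0.54, -0.19 and -0.14 on the blue-light arrays. It fell by 1.81 ± 0.431 in UV-B (adjusted p = 0.0102), with its light channel above background on 2 of the 3 UV-B arrays. The call was lost without UV-B replicate 3 (adjusted p = 0.0865) and without the arrays numbered 3 (adjusted p = 0.0611). Plain background subtraction gave -2.41. The other 4 probes lay between -0.79 and -0.24 in UV-B.

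Wall structural proteins split by name. CWLP, the cell wall-plasma membrane linker protein, had mostly negative values in every light: of its 18 probes, 17 were negative in UV-B (94.4%, against 49.4% of all probes), 16 in UV-A (88.9%, against 50.1%) and 16 in blue light (88.9%, against 49.1%), with medians of -0.85, -0.68 and -0.85. Those that passed, all of them falls, numbered 6 in UV-B (33.3%, against 13.9% of all probes lower), 2 in UV-A (11.1%, against 2.07%) and 3 in blue light (16.7%, against 2.35%). These probes share a name, and whether they read 1 gene was not tested. None of the 18 passed between any pair of lights in limma's test, with 2, 1 and 1 at an unadjusted p under 0.05 for UV-B against blue light, UV-B against UV-A and UV-A against blue light. Of all 2507 probes, 877, 606 and 80 were at that level. Because the 3 lights share a dye orientation, a dye bias of the CWLP probes and a fall common to all lights cannot be told apart.

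CWLP probe 251 had -1.49, -1.18 and -2.16 on the UV-B arrays, -0.96, -0.56 and -0.58 on the UV-A arrays and -0.80, -0.34 and -1.06 on the blue-light arrays. It was 3.05-fold lower than dark in UV-B (log2 -1.61 ± 0.275, adjusted p = 0.0017), kept in all 20 alternative fits. It had -0.70 in UV-A and -0.73 in blue light and did not pass there.

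CWLP probe 804 was the only one of the 122 that passed in all 3 lights. It had -0.52, -0.78 and -1.99 on the UV-B arrays, -1.46, -1.41 and -1.76 on the UV-A arrays and -1.11, -2.02 and -2.61 on the blue-light arrays, which overlap. It fell by 1.10 ± 0.347 in UV-B (adjusted p = 0.0382), by 1.54 ± 0.347 in UV-A (adjusted p = 0.037) and by 1.91 ± 0.347 in blue light (adjusted p = 0.0283). Each of these calls was lost in some fits with fewer arrays, while the sign held. Over all fits the log2 ratio stayed between -1.39 and -0.65 in UV-B. It stayed between -1.61 and -1.12 in UV-A and between -2.32 and -1.28 in blue light. In UV-B it was lost without any 1 UV-B or UV-A array or the arrays numbered 3 (adjusted p between 0.0506 and 0.301). In UV-A it was lost without any 1 UV-A array, UV-B replicate 1 or the arrays numbered 3 (0.0522 to 0.184), and in blue light without blue replicate 2 or 3 or the arrays numbered 3 (0.0793 to 0.209). The authors' processed values gave -1.28 in blue light.

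The brightest CWLP probe, 614, had -1.02, -0.56 and -1.07 on the UV-B arrays, -0.86, -0.64 and 0.09 on the UV-A arrays and -0.98, -0.44 and -1.49 on the blue-light arrays. It fell by 0.89 ± 0.291 in UV-B (adjusted p = 0.0446), and this call ended in 11 of 20 alternative fits, among them those without any 1 UV-B or UV-A array, blue replicate 1 or the arrays numbered 3 (adjusted p between 0.0503 and 0.195), and those with median centring or the authors' values (adjusted p = 0.113 and 0.0997). Probes 103, 503 and 2201 fell by 0.91, 0.98 and 1.06 in UV-B (adjusted p = 0.0337, 0.0166 and 0.0137), and each lost its call without UV-B replicate 1, without UV-B replicate 3 and without the arrays numbered 3 (adjusted p between 0.0599 and 0.177), probe 103 also without UV-A replicate 3 (adjusted p = 0.0503). Probe 503 had -0.32 in the authors' processed values (adjusted p = 0.28). Probes 103 and 2201 fell by 1.29 and 1.54 in blue light (adjusted p = 0.0361 and 0.0283). Probe 2201 lost that call without blue replicate 2 or 3 or the arrays numbered 3, and probe 103 also without blue replicate 1, any 1 UV-A array or UV-B replicate 1 (adjusted p between 0.0515 and 0.24). Print-tip loess also ended the blue-light call of probe 2201 (adjusted p = 0.0509), and median centring and the authors' values ended that of probe 103 (log2 -0.98 and -0.63, adjusted p = 0.0548 and 0.137). Probe 2537 fell by 1.38 in UV-A (adjusted p = 0.0482), lost without any 1 UV-A array, UV-B replicate 1 or 2, blue replicate 1 or 2, or the arrays numbered 3 (adjusted p between 0.0501 and 0.246), and with median centring, print-tip loess or the authors' values (adjusted p between 0.0518 and 0.0962). On 6 CWLP probes that did not pass, UV-B replicate 2 stood between 0.34 and 1.33 while the other 2 UV-B arrays were negative.

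The extensins, hydroxyproline-rich glycoproteins that can be cross-linked into the wall, passed on 1 of 7 probes in UV-B and on none in UV-A or blue light in limma's test. Of all probes, 24.7%, 3.19% and 3.47% passed in these lights in either direction. The 6 probes of ATEXT3 were all positive in UV-A (0.48 to 1.17) and in blue light (0.22 to 0.70), and 4 of 6 were positive in UV-B, where only probe 1386 passed. That probe had 0.77, 0.85 and 0.91 on the UV-B arrays, 0.70, 0.64 and 0.92 on the UV-A arrays and 0.84, 0.58 and 0.34 on the blue-light arrays, and rose by 0.85 ± 0.236 in UV-B (adjusted p = 0.0229). Its rise was lost without any 1 UV-B array (adjusted p = 0.086, 0.0651 and 0.106) or the arrays numbered 3 (adjusted p = 0.0674), and with the authors' values, median centring or print-tip loess (adjusted p = 0.0555, 0.0959 and 0.142). ATEXT4 had 0.74 in UV-B, 1.36 in UV-A and 1.20 in blue light, and AT2G43150, annotated as a structural constituent of the wall, had 0.28, -0.21 and -0.49. Neither passed in any comparison.

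**Figure D3:**
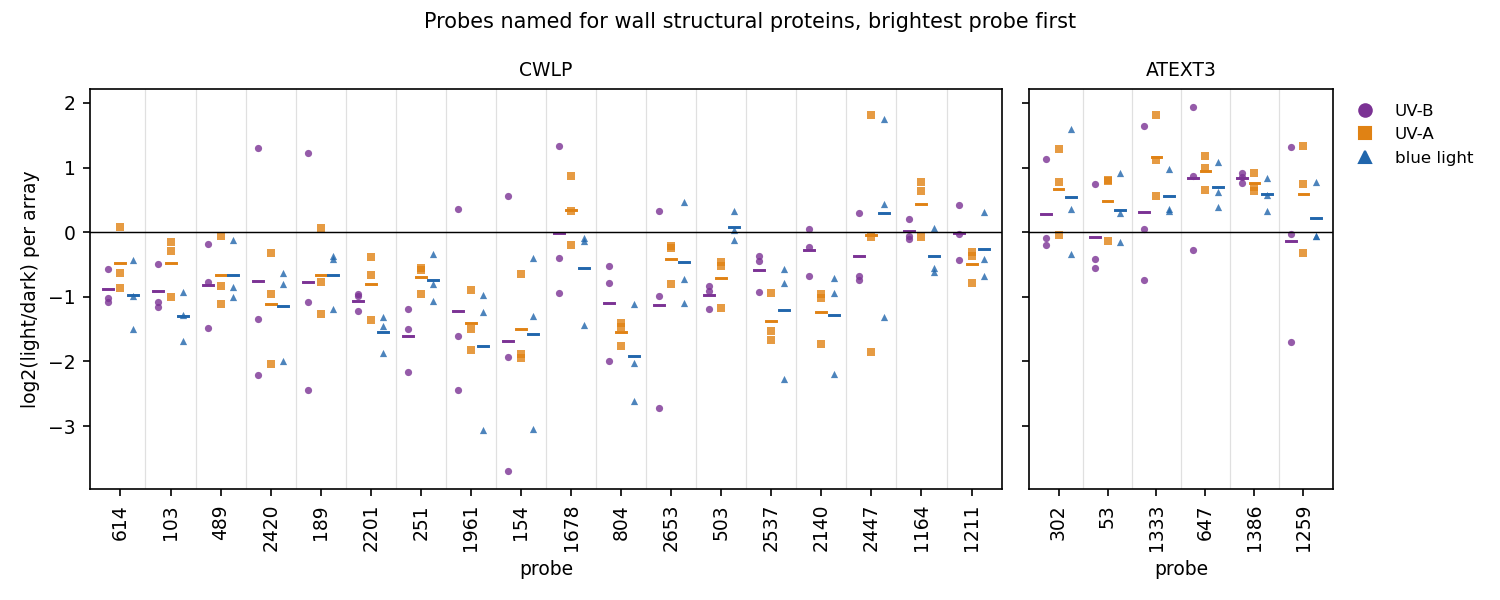
Log2(light/dark) on each array (points, 3 per light) and its mean (bars) for the 18 probes named CWLP and the 6 named ATEXT3, with the brightest probe on the left of each panel. Most CWLP bars lie below 0 in all 3 lights, with medians of -0.85 in UV-B, -0.68 in UV-A and -0.85 in blue light, while the ATEXT3 bars of UV-A and blue light lie above 0.

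Among the pectin enzymes, 9 probes of 4 names, UV-B, UV-A and blue light each raised 1 probe (11.1%, against 10.8%, 1.12% and 1.12% of all probes) and UV-B lowered 1 (11.1%, against 13.9%). AT5G62350, annotated as a pectinesterase and pectinesterase inhibitor, rose strongly on 1 of its 5 probes. Probe 2788 had 1.96, 1.53 and 3.19 on the UV-B arrays, 2.56, 3.69 and 3.61 on the UV-A arrays and 0.52, 1.48 and 1.42 on the blue-light arrays. All 9 values were positive, and every blue-light array lay below every UV-B and UV-A array. The probe rose 4.68-fold in UV-B (log2 2.23 ± 0.363, adjusted p = 0.00132) and 9.76-fold in UV-A (log2 3.29 ± 0.363, adjusted p = 0.00311), a rise whose call was lost without UV-A replicate 2 (adjusted p = 0.0514). In blue light it had 1.14 and did not pass, and no difference between lights passed (UV-A over blue light 2.15, UV-B over blue light 1.09). The other 4 probes of this name, its brightest among them, were negative in all 3 lights, between -0.96 and -0.33, and did not pass.

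AT5G62360 has the same annotation and 1 probe, 1029, with -1.62, 0.33 and -3.08 on the UV-B arrays, 0.16, -0.06 and 0.59 on the UV-A arrays and 0.26, 0.89 and 1.17 on the blue-light arrays. UV-B replicate 2 lay within the range of the UV-A arrays. It fell by 1.46 ± 0.486 against dark in UV-B (adjusted p = 0.0472) and was lower than in blue light (difference -2.23 ± 0.687, adjusted p = 0.0431). Without UV-B replicate 3, or without the arrays numbered 3, the fall against dark was -0.64 (adjusted p = 0.412 and 0.36), and without UV-B replicate 2 it was -2.35. Against blue light it was -1.42 without UV-B replicate 3 (adjusted p = 0.133), -1.22 without the arrays numbered 3 (adjusted p = 0.252) and -3.12 without UV-B replicate 2. Both calls were also lost without UV-B replicate 1, any 1 UV-A array, or blue replicate 1 or 2 (adjusted p between 0.054 and 0.179), and the second without blue replicate 3 (adjusted p = 0.116). Reading all spots also ended both (adjusted p = 0.0565 and 0.0539).

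The pectinesterase AT5G47500 rose in blue light on 1 of its 2 probes. Probe 1465 had -0.27, -0.57 and -1.16 on the UV-B arrays, 1.39, 0.35 and 1.41 on the UV-A arrays and 3.03, 0.84 and 4.36 on the blue-light arrays. UV-B lay below both other lights, and blue replicate 2 lay among the UV-A values. It was 6.7-fold above dark in blue light (log2 2.74 ± 0.513, adjusted p = 0.0302) and 10.6-fold lower in UV-B than in blue light (difference -3.41 ± 0.726, adjusted p = 0.00951). Blue replicate 3 set much of the size: without it the rise was 1.93 (adjusted p = 0.213) and the difference -2.60, and without the arrays numbered 3 they were 1.93 (adjusted p = 0.165) and -2.35 (adjusted p = 0.0817). Without blue replicate 2 they were 3.70 and -4.36. The rise lost its call, too, when blue replicate 1 (adjusted p = 0.0545) or UV-B replicate 1 (adjusted p = 0.0508) was left out. The brighter probe 1995 had -1.18 in UV-B, -0.37 in UV-A and 0.44 in blue light and did not pass.

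The pectinesterase AT5G19730, with 1 probe, had 0.69, -0.08 and 1.41 on the UV-B arrays, -0.15, 0.19 and -0.64 on the UV-A arrays and -0.42, -0.79 and -2.21 on the blue-light arrays. It stood 1.81 ± 0.535 above blue light in UV-B (adjusted p = 0.037) and did not pass against dark. The difference was 0.91 without the arrays numbered 3 (adjusted p = 0.222), and its call was also lost without UV-B replicate 1 or 3, UV-A replicate 1, or blue replicate 2 or 3 (adjusted p between 0.0502 and 0.122). It was 0.98 in the authors' processed values (adjusted p = 0.0653) and 1.67 under median centring (adjusted p = 0.0505). The cellulose synthase-like gene CSLD3, the single member of its class, had 0.62, 1.25 and 0.63 on the UV-B arrays, -0.09, 0.35 and -0.57 on the UV-A arrays and -0.31, 0.63 and 0.18 on the blue-light arrays. Its mean of 0.83 in UV-B missed the threshold (adjusted p = 0.0544).

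The glycosyl hydrolases were the widest class, with 65 probes of 26 names. In UV-B 8 probes fell and 4 rose (12.3% and 6.15%, against 13.9% and 10.8% of all probes), so neither share was above that of all probes. In UV-A 2 rose (3.08%, against 1.12%), and in blue light 3 rose (4.62%, against 1.12%). The deepest fall belonged to AT4G27830. Its brightest probe 2317 had -3.82, -3.27 and -3.73 on the UV-B arrays, -0.06, 1.16 and 0.90 on the UV-A arrays and 0.38, 1.04 and 1.31 on the blue-light arrays. Normalised intensities were 1710, 1104 and 4298 in the light channel of the UV-B arrays, against 24107, 10606 and 57120 in their dark channel. The UV-B arrays stood apart from all others by over 3 log2 units.

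AT4G27830 probe 2317 was 12.2-fold lower than dark in UV-B (log2 -3.61 ± 0.303, adjusted p = 1.91e-05), 22.9-fold lower in UV-B than in blue light (difference -4.51 ± 0.429, adjusted p = 0.000194) and 19.3-fold lower than in UV-A (difference -4.27 ± 0.429, adjusted p = 0.000228). Dark-channel spots were saturated 3 times on the UV-B arrays, so the depth of the fall is not exact. Probe 2046 had -1.88, -2.25 and -1.15 on the UV-B arrays, 0.24, 0.46 and 1.05 on the UV-A arrays and 0.24, 1.17 and 1.20 on the blue-light arrays. It fell by 1.76 ± 0.309 against dark (adjusted p = 0.00194) and was lower than in blue light (difference -2.63 ± 0.437, adjusted p = 0.00305) and UV-A (difference -2.34 ± 0.437, adjusted p = 0.00687). All 6 calls held in each of the 20 alternative fits. Probes 922 and 2724 had -0.58 and -0.29 in UV-B and did not pass.

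AT5G42100 ran a similar course on 1 of its 5 probes. The brightest, probe 2488, had -3.19, -2.07 and -2.99 on the UV-B arrays, 0.83, 0.59 and 1.30 on the UV-A arrays and 1.49, 1.01 and 2.19 on the blue-light arrays. Its normalised light-channel intensities on the UV-B arrays were 976, 1217 and 2606, against 8904, 5098 and 20657 in the dark channel. It was 6.71-fold lower than dark in UV-B (log2 -2.75 ± 0.314, adjusted p = 0.000158), 19.8-fold lower in UV-B than in blue light (difference -4.31 ± 0.444, adjusted p = 0.000194) and 12.6-fold lower than in UV-A (difference -3.65 ± 0.444, adjusted p = 0.000554). These calls held in every alternative fit. In blue light it rose by 1.56 ± 0.314 (adjusted p = 0.0351). In the fit reported it was the only name that passed in blue light through its brightest probe (2 passed with median centring and 7 with the replicate block). This call was lost without any 1 blue-light or UV-A array, UV-B replicate 1 or the arrays numbered 3 (adjusted p between 0.0508 and 0.24). The other 4 probes lay between -1.07 and 0.18 in UV-B and did not pass.

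AT5G55180 and AT1G11545 also fell in UV-B. Probe 1006 of AT5G55180 had -1.68, -1.99 and -1.56 on the UV-B arrays, -0.17, -0.30 and 0.93 on the UV-A arrays and -0.21, -0.37 and 1.99 on the blue-light arrays, so that UV-B did not overlap with the other lights. It fell by 1.74 ± 0.422 (adjusted p = 0.0113) and was lower than in blue light (difference -2.21 ± 0.597, adjusted p = 0.0258). Both calls were lost without any 1 UV-B array (adjusted p between 0.0532 and 0.0757). The second was also lost without blue replicate 3, where the difference was -1.45 (adjusted p = 0.0543), and it was -1.55 without the arrays numbered 3 and -1.42 in the authors' processed values. The other 5 probes of this name lay between -0.54 and 0.67 in UV-B and did not pass.

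The brightest probe of AT1G11545, 2386, had -1.32, -0.37 and -2.71 on the UV-B arrays, -0.32, -0.14 and 0.32 on the UV-A arrays and 0.11, 0.74 and 0.17 on the blue-light arrays. It fell by 1.47 ± 0.377 in UV-B (adjusted p = 0.0155) and was lower than in blue light (difference -1.80 ± 0.533, adjusted p = 0.037). Without UV-B replicate 3 these were -0.85 (adjusted p = 0.15) and -1.18 (adjusted p = 0.112). Without the arrays numbered 3 the fall was -0.85 and both calls were lost, as they were without UV-B replicate 1. The second call was lost as well without UV-A replicate 1 or any 1 blue-light array (adjusted p between 0.0556 and 0.0929).

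AT4G37800 fell by less. Its brightest probe 1585 had -0.35, -1.44 and -0.73 on the UV-B arrays, -0.75, -0.63 and -0.10 on the UV-A arrays and -0.53, -0.56 and -0.53 on the blue-light arrays. The lights overlapped, all 9 values were negative, and the UV-B mean fell by 0.84 ± 0.273 (adjusted p = 0.0416). This call was lost without any 1 UV-B or UV-A array, blue replicate 1 or 2, or the arrays numbered 3 (adjusted p between 0.0526 and 0.242), and in the authors' processed values (log2 -0.49, adjusted p = 0.114).

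BGL1, named for beta-glucosidase homolog 1, had 1 probe with -1.23, -2.16 and -0.70 on the UV-B arrays, 1.80, -0.80 and 1.09 on the UV-A arrays and 2.20, 0.15 and 0.37 on the blue-light arrays. It was lower in UV-B than in blue light (difference -2.27 ± 0.717, adjusted p = 0.0471), and its -1.36 against dark did not pass. The difference was -1.62 without blue replicate 1 (adjusted p = 0.141) and -2.87 without the arrays numbered 3 (adjusted p = 0.0972). The call was also lost without any 1 UV-B array, UV-A replicate 3 or blue replicate 3 (adjusted p between 0.0589 and 0.131), and with all spots (adjusted p = 0.0582).

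A smaller set of hydrolase probes rose. AT3G23640 probe 1476 had 1.91, 0.71 and 1.64 on the UV-B arrays, 1.79, 1.02 and 0.30 on the UV-A arrays and 1.09, 0.14 and -0.41 on the blue-light arrays. It rose by 1.42 ± 0.371 in UV-B (adjusted p = 0.0167), which overlapped UV-A, and the call was lost without UV-B replicate 1 (adjusted p = 0.12), UV-B replicate 3 (adjusted p = 0.105) or the arrays numbered 3 (adjusted p = 0.0525). AT3G57520 had 11 probes, of which 1 rose in UV-B, 2 in UV-A and 2 in blue light (9.09%, 18.2% and 18.2%, against 10.8%, 1.12% and 1.12% of all probes). Its brightest, probe 301, had 0.01, 0.55 and 0.60 in the 3 lights and did not pass.

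AT3G57520 probe 288 had 2.99, 2.42 and 1.36 on the UV-B arrays, -0.34, 0.63 and -0.02 on the UV-A arrays and -0.63, 0.51 and 1.66 on the blue-light arrays. It rose 4.79-fold in UV-B (log2 2.26 ± 0.422, adjusted p = 0.00273), a call kept in all 20 alternative fits, with 2.91 under plain background subtraction. Blue replicate 3 lay among the UV-B values, and no difference between lights passed. Probes 1155 and 2740 rose in the other lights instead. Probe 1155 rose by 1.59 ± 0.355 in UV-A (adjusted p = 0.0369) and by 1.48 ± 0.355 in blue light (adjusted p = 0.0469). Probe 2740 rose by 2.08 ± 0.36 in UV-A (adjusted p = 0.0131) and by 1.47 ± 0.36 in blue light (adjusted p = 0.0493), and had 0.53 in UV-B, where both channels were above background on 2 of 3 arrays.

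The calls of AT3G57520 probes 1155 and 2740 were lost in some fits with fewer arrays. For probe 1155 the UV-A call was lost without any 1 UV-A array, UV-B replicate 1 or the arrays numbered 3 (adjusted p between 0.0562 and 0.219), and the blue-light call without any 1 blue-light or UV-A array, UV-B replicate 1 or the arrays numbered 3 (adjusted p between 0.0505 and 0.31). The blue-light call was also lost with plain background subtraction, print-tip loess or all spots (adjusted p between 0.0531 and 0.0561), and the rise was 0.80 in the authors' processed values (adjusted p = 0.159). For probe 2740 the UV-A call ended when UV-A replicate 2 or 3 or the arrays numbered 3 were left out (adjusted p between 0.0727 and 0.14), and the blue-light call without any 1 array (adjusted p between 0.0512 and 0.226), as well as with print-tip loess, all spots, saturated spots left out, median centring, plain subtraction or the authors' values (adjusted p between 0.0506 and 0.087).

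The remaining hydrolase names did not pass on any probe in any comparison. They include KOR1, a membrane-bound endoglucanase needed for cellulose synthesis (-0.44 in UV-B, -0.15 in UV-A and 0.19 in blue light), and RSW3, a glucosidase subunit of the endoplasmic reticulum that acts on glycoproteins (0.60, -0.06 and 0.62 in the same lights). BXL2 and XYL4, beta-xylosidases, had -0.19 and -0.78 in UV-B. The probes of AT1G64390, AT1G75680, AT2G27500, AT2G44450, AT2G44570, AT3G18080, AT3G23730 and AT3G55430, which the annotation describes only as hydrolases, lay between -0.80 and 0.53 in UV-B, -0.94 and 1.11 in UV-A and -1.10 and 0.93 in blue light. The 2 probes of TGG1, a myrosinase that breaks down glucosinolates, had 0.80 and -0.43 in UV-B. AT4G16260 had -0.19, 1.05 and 3.53 on the UV-B arrays, the widest spread of any brightest hydrolase probe in that light, and its mean of 1.46 did not pass.

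**Figure D4:**
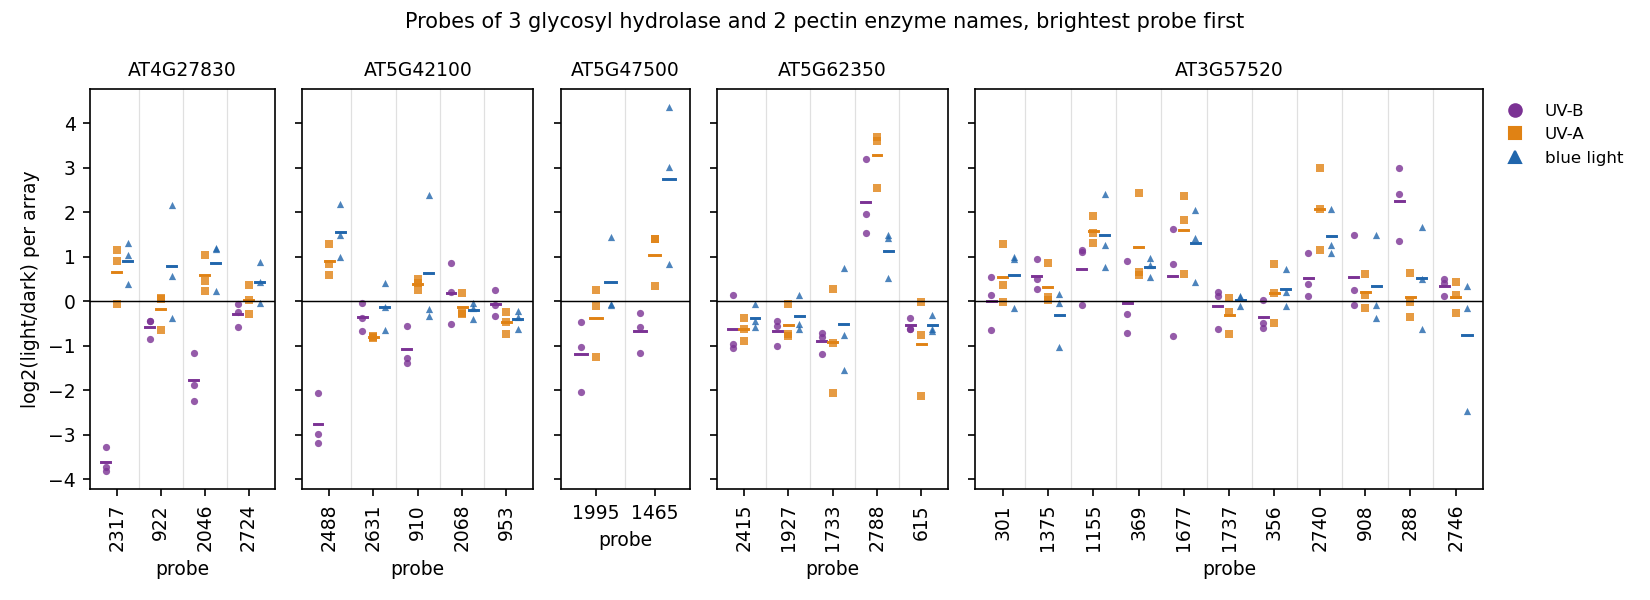
Log2(light/dark) on each array (points, 3 per light) and its mean (bars) for all probes of AT4G27830, AT5G42100, AT5G47500, AT5G62350 and AT3G57520, with the brightest probe of each name on the left. AT4G27830 probe 2317 and AT5G42100 probe 2488 lie between -3.82 and -2.07 in UV-B, and the remaining probes of those names lie closer to 0.

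Set by their brightest probes, 13 of the 38 names passed in at least 1 of the 6 comparisons (34.2%, against 30.7% of all 1132 names). At least 1 probe passed in any for 19 names (50%, against 39.9%), and these names had more probes, 3.21 each against 2.01 over all names. Averaging all probes of a name instead left 9 names in UV-B, 2 higher and 7 lower (23.7% in either direction, against 25.7% of all names). CSLD3 passed there (0.83 ± 0.264, adjusted p = 0.0377), as did XTH9, while CWLP, TCH4, ATXTH17 and AT5G55180 did not. CSLD3 has 1 probe, so averaging left its log2 ratio as it was, and its call came with the test over names. Probes of 1 name passed in opposite directions for ATXTH17 and XTH9. Fitting only the lights of a comparison ended 23 of the 58 probe calls that the 6 comparisons gave. Against dark in UV-B these were XTH9 probe 3, CWLP probes 103, 614 and 804, ATXTH17 probes 1380, 1648 and 2644, ATEXT3 probe 1386, AT1G11545, AT4G37800 and AT5G62360, and in UV-A XTH9 probe 2497. Against dark in blue light they were CWLP probes 103, 804 and 2201, AT3G57520 probes 1155 and 2740, and AT5G42100. Between UV-B and blue light they were XTH9 probe 452, ATXTH17 probe 1648, AT1G11545, AT5G19730 and AT5G62360 (adjusted p between 0.0503 and 0.137 over the 23).

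**Figure D5:**
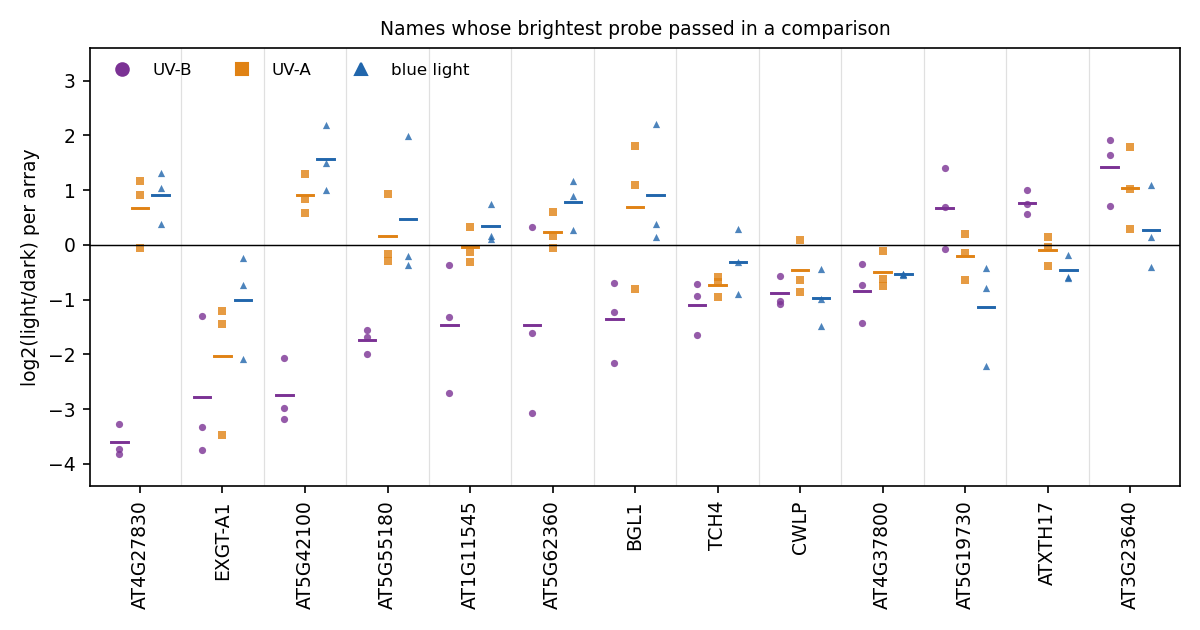
Log2(light/dark) on each array (points, 3 per light) and its mean (bars) for the 13 names whose brightest probe passed in at least 1 comparison, ordered by the UV-B mean. UV-B means run from -3.61 for AT4G27830 to 1.42 for AT3G23640. For AT4G27830, AT5G42100 and AT5G55180, all UV-B points lie below all points of the other 2 lights.

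Other genes that bear on the wall or on cell expansion were read from a list of name patterns. It took 35 names, 16 of them only because the letters of actin occur in words such as acting. Without these, 1 of 19 names rose and 4 fell in UV-B (26.3%, beside 24.2% of all names). The actin gene ACT8 rose by 1.09 ± 0.281 (adjusted p = 0.0155). TUB6, a beta-tubulin of the microtubules, fell by 1.92 ± 0.374 (adjusted p = 0.00343), PIP3, a water channel of the plasma membrane, fell by 2.09 ± 0.327 (adjusted p = 0.00111), and RALFL22, a peptide of the growth-controlling RALF family, fell by 3.13 ± 0.395 (adjusted p = 0.000252). The fourth, Flnc, fell by 4.06 ± 0.312 (adjusted p = 1.28e-05) and is a probe named after a mouse gene. UV-A lowered 1 of the 19, this same mouse-named probe (5.26%, against 1.77% of all names in either direction). None passed in blue light in limma's test (0%, against 3.27%).

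Between UV-B and blue light, 4 of the 19 were lower in UV-B and 1 was higher (26.3%, against 17.9% of all names). The lower ones were TUB6, PIP3, RALFL22 and the mouse-named Flnc. The higher one was AT5G39320, a UDP-glucose 6-dehydrogenase, the enzyme class that makes precursors of pectin and hemicellulose (1.32 ± 0.403, adjusted p = 0.0419). Arabinogalactan proteins AGP9 and AGP15 had -0.33 and 0.31 in UV-B, the polygalacturonases AT3G16850 and AT3G61490 had -0.42 and 0.51, and SUS1, a sucrose synthase, had -0.01. None of these passed in any comparison.

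Some markers of cell types that the peeled layer could hold, and of wound or pathogen response, also moved in UV-B. Of 2 water channel genes listed for root and storage tissue, PIP3 and PIP1B, both fell in UV-B (median -1.92, against 0.85 in UV-A and 0.52 in blue light). The list for wound or pathogen response, which marks no cell type, held 4 genes. PR4 and ATHCHIB rose in UV-B (3.96 and 3.63), PR4 also in UV-A (1.37). ELP and AT2G43590, listed only because their deposited names mention chitinase, had -1.11 and 0.13 in UV-B and did not pass. Of 3 vascular and lignifying genes, PRXR1 fell by 3.04 in UV-B, and ATOMT1 and CYP98A3 had -0.09 and 0.68. Of 2 green-tissue genes, LHCB2.1 had 0.61 in UV-B, 0.63 in UV-A and 1.24 in blue light, where it passed, and AT5G38420 had 0.20, -1.06 and -0.64 in these lights and did not pass. CER3, the single surface marker, had -0.19 with its dark channel not above background on every array. The part of these changes, or of a different mix of cells, in the wall genes' values was not tested.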

How the data were processed

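Expression was measured in turnip swollen hypocotyls on 9 two-colour spotted cDNA arrays, 3 each for UV-B, UV-A and blue light. For each array the authors deposited linear foreground and background intensity values per spot and channel, with a score of 0 or 1, called weight, that the sources used here do not explain. Spots of weight 1 (5300 of 6272) were used. Scanner, image software and the authors' normalization were not given in the sources used here. Per the labels' protocols, exposed samples carried Cy3 and dark samples Cy5, with a dendrimer labelling kit. The authors also deposited processed log2 values, which correlated at -0.963 to -0.854 with log2(light/dark) of the same arrays, had column medians of -0.165 to 0.047 and so run dark over light, opposite to the values printed here. Their sign was turned and they served as an alternative source, with scale and centring unknown. The design text mentions further arrays made to correct dye bias, which are not analysed here.

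Background was corrected by normexp (offset 50) and log ratios were normalised by loess within each array, using limma 3.58.1 under R 4.3.3. Values of a probe's spots were averaged. Probes were retained where either channel's foreground was at least 1.5 times its background on at least 3 arrays, which removed 0 probes, so all 122 members were tested. The 3 arrays numbered 3, where most spots without a clone lay above background, could meet this rule by themselves. Passing it therefore says little about detection. The same ratio of 1.5 defines above background throughout. One limma model with a mean per light over all 9 arrays gave every test, two-sided, with Benjamini-Hochberg adjustment over 2507 probes. Tests by name use the brightest probe, with adjusted p-values over all probes. The number of arrays limits the precision. The code was tested on simulated data.

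Same-numbered arrays of different lights deviated together from their light means in all 9 pairs (r = 0.105 to 0.622). The sample titles give only the number, and differently numbered arrays were not compared in this way. Whether the replicate number pairs the arrays is therefore not settled. Fits with it as a block are given where they move a count by over 1.5 times. In a test against dark the block takes the variation between replicates out of the error. Alternatives were plain background subtraction, median centring, print-tip loess, other filters on dim probes, use of all spots, leaving out saturated spots (14 of the 122 probes had one), the authors' values, the block, lights fitted by themselves, each array left out in turn and, chosen after seeing the data, the 3 arrays numbered 3 left out together. Probes named in full were the brightest probe of each name that passed in any comparison, the brightest in classes without one, and EXGT-A1 and CWLP. Further probes that passed were chosen after their values were seen. The members, lists and rules were chosen with earlier results of these data known. None of the 38 names was found in the table of turnip genes at hand, and coordinates and sequences are not used here. Python and matplotlib drew the figures.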

Additional observations from a re-analysis of the deposited data

Results flagged for a closer look

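Spots of weight 0, which no comparison uses, include 55 with a name of the wall or glycosyl hydrolase genes. Of these, 9 lay above background in the dark channel on at least 3 of the 6 arrays numbered 1 and 2. By the same measure, 4 of the 135 spots without a clone lay above background. The arrays numbered 3 were left out of this count because most spots without a clone lay above background there.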

How the results depend on the processing

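The 6 comparisons gave 58 calls of single probes, and in 20 alternative fits none of these changed sign. Of the 28 calls of UV-B against dark 11 held in every fit that measured the probe, as did 5 of 13 of UV-B against blue light, 3 of 3 of UV-B against UV-A and none of the 7 each of UV-A and blue light against dark. Leaving out 1 array, or the 3 numbered 3, gave 11 to 33 calls for UV-B against dark, 0 to 8 for UV-A against dark, 0 to 7 for blue light against dark, 6 to 13 for UV-B against blue light and 3 to 6 for UV-B against UV-A. UV-A against blue light stayed at 0. For these first 5 comparisons in the same order, the share of all probes that passed also moved. It ran from 10.8% to 29.4%, 0% to 5.31%, 0% to 4.07%, 7.42% to 18.3% and 2.99% to 11.1%. A block on the replicate number treats same-numbered arrays as pairs. With it, 42, 20 and 24 probes passed against dark in UV-B, UV-A and blue light (34.4% in UV-B, against 32.7% of all probes). Between lights, 25 passed for UV-B and blue light, 9 for UV-B and UV-A and 0 for UV-A and blue light. All 58 calls held. Blue light against dark had 4 calls in the authors' processed values and 1 when fitted by itself. UV-B against UV-A had 7 calls with plain background subtraction, 5 with print-tip loess, 5 in the authors' values and 7 when these lights were fitted by themselves. The cause of these moves was not tested, except that a fit of fewer arrays has less to estimate the spread from. Fitting lights by themselves ended 23 of the 58 calls, the authors' values 11, median centring 8, print-tip loess 7, use of all spots 6, plain subtraction 3 and leaving out saturated spots 1. Higher and lower calls were 3 and 2 in UV-A under median centring and 5 and 3 under print-tip loess, against 3 and 4 in the fit reported. In blue light they were 2 and 3 under print-tip loess, against 4 and 3. UV-B over blue light had 2 higher and 15 lower under median centring, against 3 and 10, and UV-B over UV-A had 1 higher with 3 lower under median centring, 4 under print-tip loess and 4 in the authors' values. The authors' values moved the median of all probes to 0.123 in UV-B against dark, where the 122 had -0.217. Signal limited UV-B replicate 1 most: 90 of the 122 probes were above background in its light channel. This was so for 112 on UV-B replicate 2 and at least 113 on replicates 1 and 2 of the other lights. On the arrays numbered 3 it was 121 or 122, but 79.3% to 99.3% of spots without a clone lay above background there, so those counts are not comparable.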
